A study of Mus musculus with 4 samples.

Results

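The 10 genes described here encode the 3 sensors of the unfolded protein response and the transcription factors and targets of its ATF4-CHOP branch: Ern1, Xbp1, Atf6, Herpud1, Eif2ak3, Atf4, Ddit3, Ppp1r15a, Trib3 and Asns. They were chosen by name, with earlier results of these data known. Every probe set whose only annotated gene symbol was one of these was taken, and the probe sets of a gene were averaged. All 10 genes were measured, by 19 probe sets, out of 10923 genes and 17209 probe sets with 1 symbol. The samples were regenerating livers of male C57BL6/J mice, 6 to 13 weeks old. The siOrm group (2 arrays) had received an siRNA against Orm1, a gene for the secreted acute phase protein orosomucoid, and the siControl group (2 arrays) served as its control. Per the series text, the siRNA was given in 1 injection with Invivofectamine 3.0, 40% of the liver was resected 3 days later, and expression was read 48 hours after the resection on the Mouse Genome 430A 2.0 array. Whether each array was hybridised with RNA of 1 mouse or of pooled mice is not in the labels, so p-values reflect the spread between these arrays alone, and that spread may be technical.

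The unfolded protein response is how a cell answers an overload of unfolded protein in the endoplasmic reticulum (ER), the compartment where secreted proteins are made. Its sensors sit in the ER membrane: IRE1 (Ern1) splices the mRNA of Xbp1, ATF6 is cut to release a transcription factor, and PERK (Eif2ak3) phosphorylates the translation factor eIF2, which lowers general translation and raises that of ATF4. Hepatocytes secrete most plasma proteins and carry a large ER. ATF4 is also raised by other eIF2 kinases, for example when amino acids run short. Splicing, cleavage and phosphorylation are not seen by an array of this kind, which measures transcript abundance only.

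The promoters of Trib3, Asns and Herpud1 are shown because they hold a letter match to a response element of this pathway, and because the first and second of these had the largest differences of the 10 genes, in opposite directions. Of the 10 genes 9 had a promoter in the RefSeq table (GRCm38.p6), from 250 bases before to 50 bases after the start. Relative to its annotated gene start, the Eif2ak3 promoter had 219 bases before and 81 after. Atf6 had none there. The element bound by ATF4 with C/EBP factors (CARE, TGATGNAA, searched on both strands) was found in Trib3, Asns and Herpud1, and in 3.97% of all 32851 promoters of that length. The ER stress element ERSE-II (ATTGGNCCACG), bound by ATF6 and XBP1, was found in Herpud1 and in 0.0365% of all promoters. The ER stress element ERSE (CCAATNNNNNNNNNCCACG) and the core of the XBP1 element (UPRE, TGACGTGG) were found in 0 of the 9 promoters, and in 0.119% and 0.676% of all. ERSE and ERSE-II share the letters CCACG, whose complement also ends the UPRE core, and no matches overlapped in the promoters shown. Capitals mark the fixed letters of each match. The Trib3 promoter lies on the minus strand at chr2:152344011-152344310, with CARE on the opposite strand at bases 265 to 272 of the sequence, just past the start. The Asns promoter lies on the minus strand at chr6:7693160-7693459, with CARE in the reading direction at bases 228 to 235. The Herpud1 promoter lies on the plus strand at chr8:94386179-94386478, with CARE on the opposite strand at bases 139 to 146 and ERSE-II in the reading direction at bases 199 to 209.
Trib3: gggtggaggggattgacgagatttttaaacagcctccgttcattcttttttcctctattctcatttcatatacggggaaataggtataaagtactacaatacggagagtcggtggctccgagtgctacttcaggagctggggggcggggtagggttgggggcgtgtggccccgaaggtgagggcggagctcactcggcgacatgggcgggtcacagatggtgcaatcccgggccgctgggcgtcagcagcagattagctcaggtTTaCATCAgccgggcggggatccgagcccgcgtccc
Asns: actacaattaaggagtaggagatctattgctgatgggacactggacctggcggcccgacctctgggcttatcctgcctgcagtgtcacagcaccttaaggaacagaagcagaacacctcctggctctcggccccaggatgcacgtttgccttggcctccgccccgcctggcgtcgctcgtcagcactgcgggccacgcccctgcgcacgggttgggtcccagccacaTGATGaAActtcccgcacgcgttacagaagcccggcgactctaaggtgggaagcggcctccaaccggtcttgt
Herpud1: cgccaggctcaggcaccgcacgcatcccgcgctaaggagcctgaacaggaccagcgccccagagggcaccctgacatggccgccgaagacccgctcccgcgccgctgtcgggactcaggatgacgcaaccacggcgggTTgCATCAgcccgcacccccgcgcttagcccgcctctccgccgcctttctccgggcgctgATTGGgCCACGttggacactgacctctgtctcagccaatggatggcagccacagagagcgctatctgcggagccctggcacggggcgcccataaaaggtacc
A match is a description of letters and not a measured binding site.

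All values are log2 signals that the authors' table gives relative to each probe set's median over the 4 arrays, or differences of group means of such values, siOrm minus siControl. The sources used here do not name the logarithm's base, and base 2 was assumed. The centring makes the inner pair of the 4 values of a probe set mirror each other around 0, and it removes the signal level, so genes cannot be ranked by abundance and the identity of the tissue cannot be read from its markers. The targeted gene gave a weak check of the labels: Orm1 stood at -0.24 and -0.02 in siOrm, against 0.02 and 0.19 in siControl (limma, adjusted p = 0.994). Its close relatives Orm2 and Orm3 differed by -1.08 (SE 0.34) and -0.91 (SE 0.34), also without passing. The siControl arrays were less alike (standard deviation of their difference over genes 0.384) than the siOrm arrays (0.249). Macrophage markers (11 genes) averaged -0.02 and -0.05 in siOrm, against -0.23 and 0.86 in siControl, and neutrophil markers (9 of 11 measured) -0.08 and -0.04 in siOrm, against 0.10 and 0.51 in siControl. The last value came from S100a8 (2.75) and S100a9 (1.95), while the other 7 neutrophil markers stood between -0.27 and 0.14 on that array. Stellate markers (7 of 8) averaged -0.13 and 0.13 in siOrm, against -0.22 and 0.41 in siControl, and endothelial markers (7 of 8) 0.01 and -0.05 in siOrm, against -0.15 and 0.32 in siControl. The macrophage, stellate and endothelial lists thus had their highest mean on siControl replicate 2. On that array the macrophage markers ran from -0.03 (Adgre1) to 2.79 (Cd14). The lymphocyte list had its lowest mean there (-0.17), and the hepatocyte and biliary lists stood at -0.04 and 0.14. Fewer cells of a type and less RNA per cell cannot be told apart in whole liver. The part of these cells in the results that follow was not tested.

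The 10 genes did not move together. Differences ran from -0.94 for Asns to 0.84 for Trib3, with 6 below 0 and 4 above, and their median was -0.09, against 0.01 over all genes. None passed the test: 0 of 10 were higher and 0 lower at an adjusted p under 0.05 (limma with Benjamini-Hochberg adjustment over all genes), where 0% of all genes were called either way. At an unadjusted p under 0.05, 2 of the 10 were higher (Trib3, Atf6) and 2 lower (Asns, Xbp1), where 2.18% of all genes were higher and 2.58% lower. Atf6 was near that threshold (limma, unadjusted p = 0.0499). The count of 4 stayed at 4 with quantile normalization and was 3 with medians of probe sets. It was 1 of 9 without probe sets that can match several transcripts. With the replicate number as a block it was 3, with a variance prior with a trend 3, and with a robust trend 4. The count also changed with each array left out in turn, a fit in which 1 group holds 1 array. Counting genes whose groups did not overlap, siOrm was above siControl for 2 of the 10, Trib3 and Atf6, where 17% of all genes had this order. It was below for 3, Xbp1, Eif2ak3 and Asns, where 15.3% did. The groups overlapped for the other 5.

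**Figure D1:**
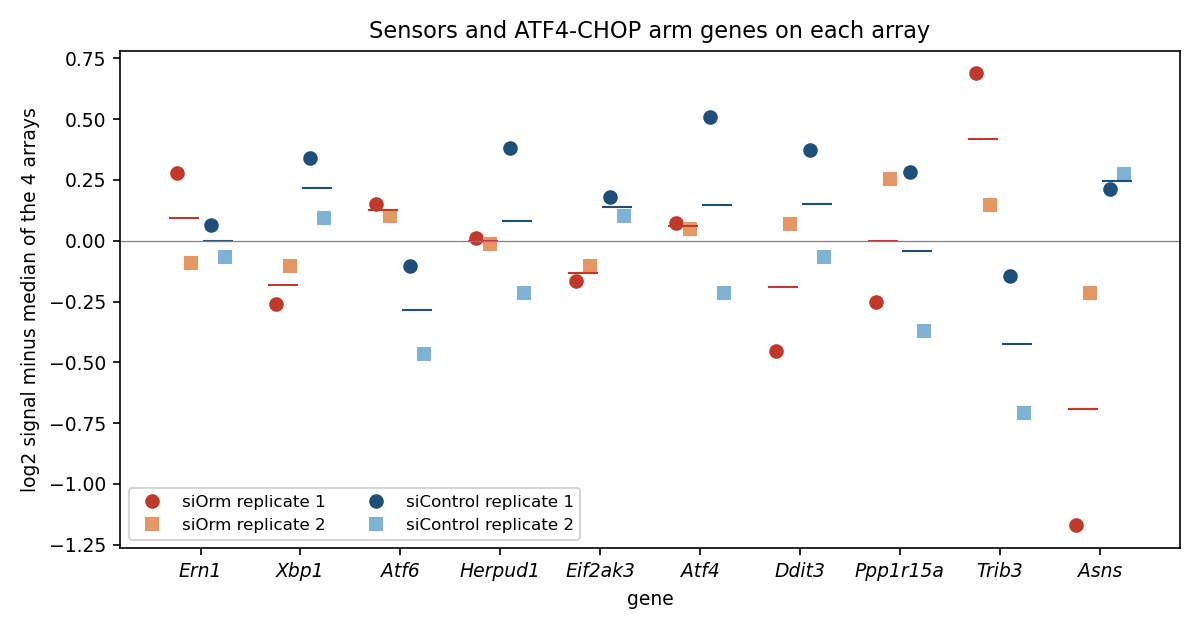
Centred log2 signal (vertical axis) of each of the 10 genes on each of the 4 arrays; siOrm arrays in red and orange, siControl arrays in dark and light blue, short lines for group means. The groups are apart for Xbp1, Atf6, Eif2ak3, Trib3 and Asns, and siControl replicate 1 is the highest array for 6 genes.

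The IRE1 branch showed its sensor and its transcription factor on different sides. Ern1, which encodes the kinase and endoribonuclease IRE1, stood at 0.28 and -0.09 in siOrm, against 0.07 and -0.07 in siControl. The siOrm arrays span the siControl arrays, and the difference of 0.09 (SE 0.17, 95% interval -0.33 to 0.52; limma, adjusted p = 0.999) turned to -0.09 without siOrm replicate 1. Xbp1, the transcription factor that drives ER expansion and folding genes once its mRNA is spliced by IRE1, stood at -0.26 and -0.11 in siOrm, against 0.34 and 0.09 in siControl. Both siOrm arrays were lower, with a difference of -0.40 (SE 0.15, 95% interval -0.78 to -0.02), a 0.759-fold level that did not pass (limma, adjusted p = 0.994). Each of its 4 probe sets gave a difference below 0, from -0.50 to -0.27, and leaving out any 1 array gave -0.52 to -0.28. Xbp1 had the most probe sets of the 10 genes, and 3 of the 4 are of types that can match several transcripts. All were read on the same 4 arrays, so they are not independent replicates. The array does not separate spliced from unspliced Xbp1 mRNA in the annotation used here.

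In the ATF6 branch the sensor was higher by value, and the direction of Herpud1, a target, depended on which array was left out. Atf6 had 1 probe set and stood at 0.15 and 0.10 in siOrm, against -0.10 and -0.47 in siControl. The siOrm arrays were close together and above both siControl arrays, which were 0.36 apart. The difference was 0.41 (SE 0.17, 95% interval 0.00 to 0.82; limma, adjusted p = 0.994), or 1.33-fold, and it was 0.23 without siControl replicate 2. Herpud1, an ER membrane protein that helps degrade misfolded proteins, stood at 0.01 and -0.01 in siOrm, against 0.38 and -0.22 in siControl. The siOrm arrays lay between the siControl arrays, and both probe sets of Herpud1 showed this order. Its difference of -0.08 (SE 0.22, 95% interval -0.63 to 0.46; limma, adjusted p = 0.999) was smaller than the gap of 0.60 between the siControl arrays, and turned to 0.22 without siControl replicate 1 and to -0.38 without siControl replicate 2.

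The PERK branch was represented by its sensor, by ATF4, by CHOP and by the phosphatase subunit that reverses PERK's action. Eif2ak3, which encodes PERK, had 1 probe set and stood at -0.16 and -0.10 in siOrm, against 0.18 and 0.10 in siControl. The arrays of each group were close, and siOrm was the lower in both. The difference was -0.27 (SE 0.13, 95% interval -0.59 to 0.04; limma, adjusted p = 0.994), a 0.827-fold level, and it stayed at -0.31 to -0.24 whichever array was omitted, the narrowest such range of the 10 genes. Atf4 stood at 0.07 and 0.05 in siOrm, against 0.51 and -0.21 in siControl. In this mean of probe sets the siOrm arrays lay together inside a wide siControl pair, whose gap was 0.72. The difference was -0.09 (SE 0.25, 95% interval -0.71 to 0.53; limma, adjusted p = 0.999), with 0.27 without siControl replicate 1 and -0.45 without siControl replicate 2. The Atf4 probe sets were split: 1438992_x_at differed by -0.30 and 1448135_at by -0.26, with siControl replicate 1 high at 0.72 and 0.71, while 1439258_at differed by 0.30, with siOrm replicate 1 high at 0.51. Only on 1448135_at did both siOrm arrays (-0.08 and 0.08) lie inside the siControl pair. They stood at -0.21 and 0.16 on 1438992_x_at, and at 0.51 and -0.10 on 1439258_at. The closeness of the siOrm arrays for Atf4 thus came from averaging, unlike for Herpud1. Atf4 is controlled mainly at translation, which transcript values do not show.

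Ddit3, which encodes the stress transcription factor CHOP, stood at -0.45 and 0.07 in siOrm, against 0.37 and -0.07 in siControl. The groups overlapped, since siOrm replicate 2 was above siControl replicate 2. Its difference of -0.35 (SE 0.24, 95% interval -0.94 to 0.25; limma, adjusted p = 0.994) shrank to -0.08 without siOrm replicate 1 and to -0.12 without siControl replicate 1, and grew to -0.61 without siOrm replicate 2 and -0.57 without siControl replicate 2. Ppp1r15a, the GADD34 subunit that brings a phosphatase to eIF2, stood at -0.25 and 0.25 in siOrm, against 0.28 and -0.37 in siControl. The groups overlapped over most of their range. The difference was 0.04 (SE 0.28, 95% interval -0.65 to 0.73; limma, adjusted p = 0.999), at 0.37 and -0.28 without siControl replicates 1 and 2 in turn, and at 0.30 and -0.21 without siOrm replicates 1 and 2.

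**Figure D2:**
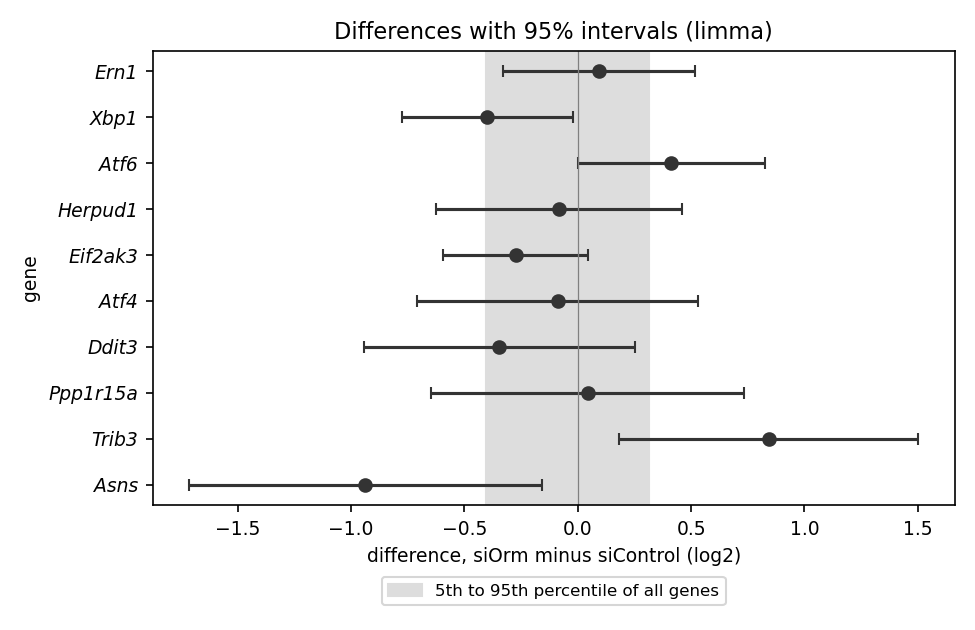
Difference of group means, siOrm minus siControl (horizontal axis, log2), for each gene, with its 95% interval from limma; the grey band runs from the 5th to the 95th percentile of all 10923 genes (-0.40 to 0.32). Trib3, Atf6 and Asns lie outside the band, and the intervals of Xbp1, Atf6, Trib3 and Asns do not include 0, with Atf6 just clear of it.

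Trib3 and Asns, both targets in the ATF4-CHOP branch, had the largest differences of the 10 genes, on opposite sides. Trib3, a pseudokinase that binds AKT and ATF4, stood at 0.69 and 0.15 in siOrm, against -0.15 and -0.71 in siControl. Both siOrm arrays were above both siControl arrays, and both probe sets showed the same order of arrays. The difference was 0.84 (SE 0.26, 95% interval 0.18 to 1.50), 1.79-fold, and did not pass (limma, adjusted p = 0.994). It had rank 133 by size among the 10923 genes. Without siControl replicate 2 it was 0.56, without siOrm replicate 1 it was 0.57, and without siControl replicate 1 and siOrm replicate 2 in turn it was 1.12 and 1.11. The names of both probe sets end in _a_at or _x_at, types that can match several transcripts, so no value remained for Trib3 without such probe sets.

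Asns, which encodes the enzyme that makes asparagine, stood at -1.17 and -0.21 in siOrm, against 0.21 and 0.27 in siControl. Both siOrm arrays were below both siControl arrays, and siOrm replicate 1 was far below siOrm replicate 2. The difference was -0.94 (SE 0.31, 95% interval -1.71 to -0.16), a 0.522-fold level at rank 102 by size, and did not pass (limma, adjusted p = 0.994). Omitting siOrm replicate 1 left -0.46, and omitting siOrm replicate 2 left -1.42. Its probe sets 1433966_x_at and 1451095_at differed by -1.04 and -0.83, with the same array lowest in each, at -1.44 and -0.90. The siControl arrays, which differed widely for Atf4, were only 0.06 apart for Asns. Trib3 and Asns both carry the CARE letters printed above, and their differences had opposite signs. Because the groups did not overlap for either gene, leaving out 1 array could not change these signs.

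**Figure D3:**
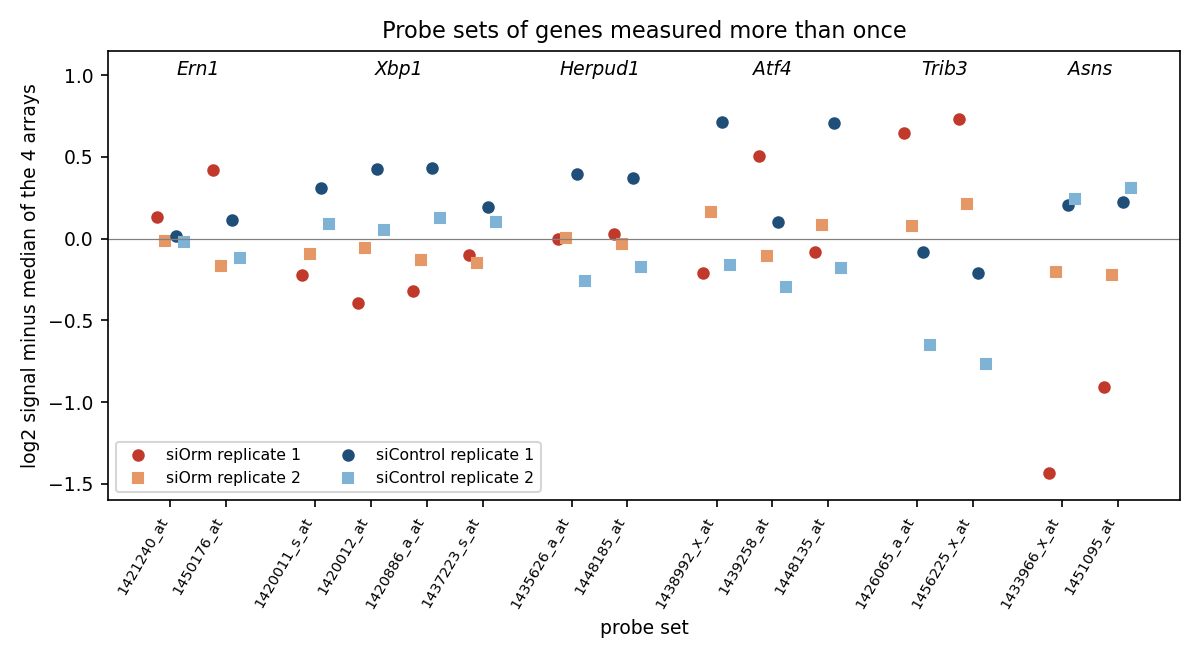
Centred log2 signal (vertical axis) of each probe set of the 6 genes with more than 1 probe set; colours as for the gene values. The 4 Xbp1, 2 Trib3 and 2 Asns probe sets repeat the order of the groups, while the Atf4 probe set 1439258_at goes against the other Atf4 probe sets.

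The gap between the arrays of a group was set beside the difference between the groups. For 5 of the 10 genes the gap between the siControl arrays exceeded the difference between the groups, and for 4 the gap between the siOrm arrays did; over all genes the shares were 66.9% and 54.6%. The median siControl gap was 0.40 for the 10 genes, against 0.20 over all genes, and the median siOrm gap was 0.26 against 0.13. The median size of the difference was 0.31, against 0.11 over all genes. The highest array was siControl replicate 1 for 6 of the 10 (Xbp1, Atf4, Ddit3, Eif2ak3, Herpud1 and Ppp1r15a), where this array was the highest for 27.2% of all genes. The lowest array was siControl replicate 2 for 5 of the 10 (Atf4, Atf6, Herpud1, Trib3 and Ppp1r15a), where it was the lowest for 38.8% of all genes. The control pair therefore set the outer values of Atf4, Herpud1 and Ppp1r15a. The median difference of the 10 genes was 0.19 without siControl replicate 1 and -0.35 without siControl replicate 2.

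**Figure D4:**
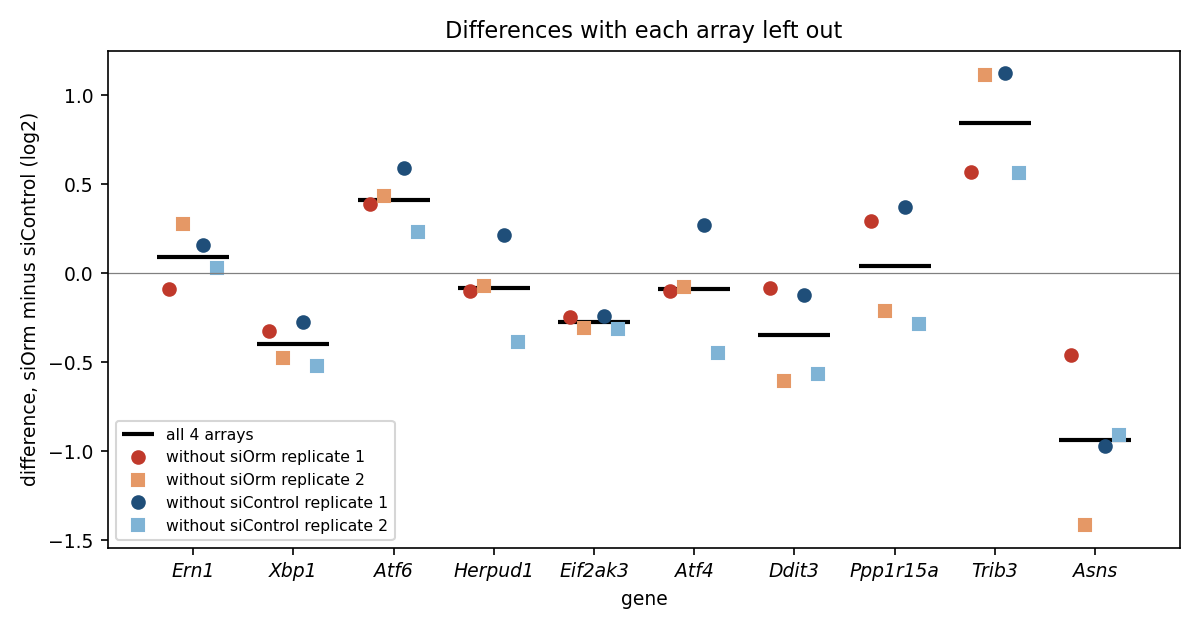
Difference, siOrm minus siControl (vertical axis, log2), with all 4 arrays (black bar) and with each array left out (points). The points stay on one side of 0 for Xbp1, Atf6, Eif2ak3, Ddit3, Trib3 and Asns, and on both sides for Ern1, Herpud1, Atf4 and Ppp1r15a. For Xbp1, Atf6, Eif2ak3, Trib3 and Asns the groups do not overlap, so leaving out 1 array could not cross 0.

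The other genes of the pathway were described by list. The lists were chosen with earlier results of these data known, so their counts are descriptions and not a test. Downstream of ATF6 and XBP1, 13 of 13 ER chaperone genes were lower on each siOrm array than on either siControl array, with a median difference of -0.63, and 10 of 14 XBP1 target genes did, with a median of -0.29; the background for this order is the 15.3% given above, and 0 genes of either list passed over all genes (limma, smallest adjusted p = 0.857). At an unadjusted p under 0.05, 11 of the chaperones and 3 of the XBP1 targets were lower, where 2.58% of all genes were. Among the chaperones, Sdf2l1, Manf, Hspa5 (the chaperone BiP) and Creld2 differed by -1.40, -1.14, -0.87 and -1.46. Of the XBP1 targets, the ubiquitin ligase Syvn1 differed by -0.63 (-0.34 and -0.30 in siOrm, against 0.30 and 0.33 in siControl), the cochaperone Dnajb9 by -0.60, the translocon-associated Ssr1 by -0.50 and the translocon channel gene Sec61a1 by -0.46. Xbp1 itself lay below 0, as did 13 of 14 genes of its target list, where 5219 of all 10923 genes were below 0. Herpud1, Ern1, Atf4, Ppp1r15a and Eif2ak3 were nearer 0 than each of the 13 chaperones, the nearest of which was at -0.30.

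Downstream of ATF4 and CHOP the values were mixed. Of 29 measured target genes 0 passed (limma; 0 also at an unadjusted p under 0.05), 11 were above 0 and 18 below, and the median difference was -0.02; over all genes 5704 of 10923 were above 0. For 4 of the 29 the siOrm arrays were above both siControl arrays, where 17% of all genes had this order, and for 8 they were below, where 15.3% did. The genes with the smallest p were the stress factor Atf3 (-0.99), the transcription factor Cebpb (-0.36), the transsulfuration enzyme Cth (0.37) and the proline synthesis enzyme Aldh18a1 (-0.33). Atf3 stood at -0.54 and -0.08 in siOrm, against 0.08 and 1.29 in siControl, so siControl replicate 2, the array high in macrophage markers, held its highest value. The 12 measured genes for tRNA synthetases and the tRNA exporter, many of them driven by ATF4, had a median of -0.09, with 0 passing (0 also unadjusted), 11 below 0 and 1 above. Xpot, the tRNA exporter, differed by 0.33, while the synthetases Iars, Wars and Nars differed by -0.30, -0.20 and -0.23.

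Upstream and partner genes had smaller median differences than the ER chaperones and XBP1 targets. The eIF2 kinases, eIF2 factors and phosphatase genes (9 of 11 measured, 0 passing by limma and 1 lower unadjusted) had a median of -0.13. Dnajc3, which encodes an inhibitor of PERK that is also an ER cochaperone, differed by -0.48, the kinase genes Eif2ak2 (PKR) and Eif2ak1 (HRI) by -0.44 and 0.25, and Eif2b4, a subunit of the exchange factor of eIF2, by -0.19. Relatives and proteases of ATF6 (9 of 10 measured, 0 passing and 1 lower unadjusted) had a median of -0.09, with Creb3l2, an ER membrane transcription factor, at -0.40, Nfyb and Nfyc, subunits of NF-Y, at -0.26 and 0.15, and Creb3 at -0.12. Partners of IRE1 (9 of 12 measured, 0 passing and 0 unadjusted) had a median of -0.11. The phosphatase Ptpn1 differed by -0.42, the kinase Map3k5 by -0.28, the adaptor Traf2 by -0.24 and the cell death protein Bak1 by -0.15. Beside these lists, the median of all genes was 0.01, and at an unadjusted p under 0.05, 2.18% of all genes were higher and 2.58% lower.

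**Figure D5:**
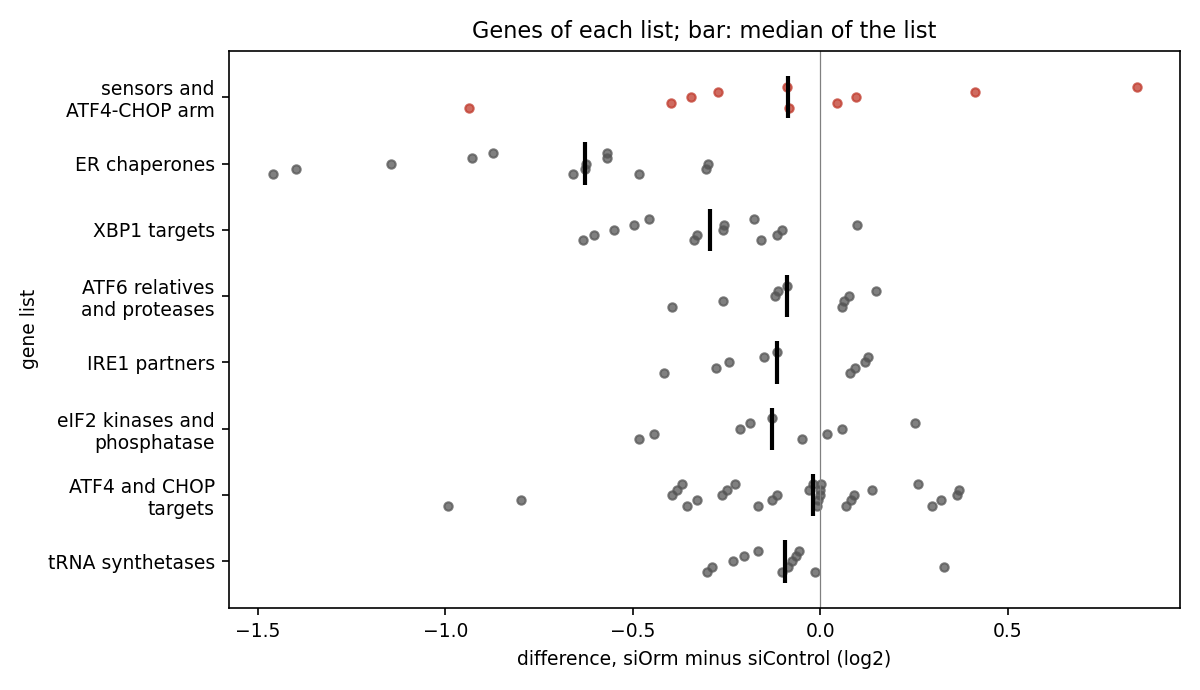
Difference, siOrm minus siControl (horizontal axis, log2), of each gene of each list, with a bar at the list's median. The 10 sensor and ATF4-CHOP genes (red) lie on both sides of 0, and the 13 ER chaperones lie below 0.

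Of the 10 genes, Trib3 had the smallest p, and the genes whose values lay closest to its own over the 4 arrays (Euclidean distance) were Upp2 (0.07), Serpinb1a (0.16), Acsm3 (0.17), Car1 (0.18) and Gulo (0.20). Upp2, a uridine phosphorylase, stood at 0.63 and 0.14 in siOrm, against -0.14 and -0.74 in siControl. Their differences ran from 0.70 for Serpinb1a to 0.87 for Car1. With 4 arrays and centred values many genes share such an order, so this is a description only.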

How the data were processed

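Values were taken from the table the authors deposited, which holds 18852 probe sets and 4 columns of log2 signal; per its values, the median of each row is 0 (largest deviation 4.8e-07). The software, the between-array normalization and any filter: not given in the sources used here. The labels describe an extraction from cultured cells and the labelling method of another array maker, so the laboratory steps are uncertain. The siOrm titles could mean siRNAs to Orm1 and to Orm2, but by source name both arrays form 1 group. Having 4 arrays limits the precision.

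No source used here names the logarithm's base. Differences between arrays were whole multiples, within 0.05 steps, of the single-precision step of values of 8 or more in 42.6% of probe sets, where smaller logarithms give at most 12.5% by chance; base 10 does not reach such values. Base 2 was assumed, and with natural logarithms differences in log2 units would be 1.44 times larger.

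Probe sets were named by the platform annotation: 17209 had 1 symbol, 564 several, 1044 none here and 35 were controls. Genes are means of probe sets. limma 3.58.1 in R 4.3.3 (lmFit, eBayes with a constant variance prior, two-sided, Benjamini-Hochberg over 10923 genes, threshold 0.05) gave all tests, with 3.60 prior and 2 residual degrees of freedom, and was tested on simulated data. The 10 genes and all lists were chosen with earlier results of these data known. All 10 genes are described; from each pathway list the 4 with the smallest p are named, and 5 genes nearest to the gene of the 10 with the smallest p. Promoters were shown where they hold a searched element. Alternatives were quantile normalization, medians of probe sets, leaving out probe sets that can match several transcripts, a variance prior with a trend (also robust), the replicate number as a block, and leaving out each array.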

Additional observations from a re-analysis of the deposited data

How the results depend on the processing

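No gene of the 10 passed under any alternative except Trib3 with the robust trend prior, at the same difference of 0.84 (limma, adjusted p = 7.17e-07; adjusted p up to 1 under its other alternatives). In a centred table the mean that such a trend follows is not a signal level. Over all genes 11 passed with a trend, 132 with a robust trend and 229 without siControl replicate 1, a fit in which the lone siControl array is assumed to vary like the siOrm arrays; it was 0 under the others, and leaving out 1 array gave 0 to 229. Of the pathway list genes, 1 passed with a trend (Sdf2l1, at -1.40), 9 with a robust trend, and 0 to 8 when 1 array was left out. The median difference of the 10 genes ran from -0.35 to 0.19 over the omissions of 1 array; quantile normalization gave -0.21. Of 99 values of single genes under alternatives, 92 kept their direction and their side of the threshold and 6 changed sign: Atf4 at 0.017 without probe sets that can match several transcripts, and at 0.27 with siControl replicate 1 omitted (range over omissions -0.45 to 0.27); Herpud1 at 0.22 with siControl replicate 1 omitted (-0.38 to 0.22); Ern1 at -0.089 with siOrm replicate 1 omitted (-0.089 to 0.28); and Ppp1r15a at -0.28 and -0.21 with siControl replicate 2 or siOrm replicate 2 omitted (-0.28 to 0.37). The cause was not tested. The variance priors with a trend and the replicate block cannot change a difference in this balanced design. Neither can the median of probe sets for genes with 1 or 2 probe sets. Leaving out 1 array cannot change the sign for Xbp1, Atf6, Eif2ak3, Trib3 and Asns, whose groups do not overlap. Part of the 99 directions was therefore fixed in advance. The titles number the arrays 1 and 2 in both groups. With the number as a replicate block 0 genes passed (limma, smallest adjusted p = 0.39), while the differences are unchanged by construction. Deviations of same-numbered arrays correlated at 0.13 over genes, and 2 numbers do not show pairing.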

Other observations

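Some single targets of ATF4 differed widely between the siControl arrays, and they were chosen after their values were seen. As a list, the 29 ATF4 and CHOP targets averaged -0.11 and 0.03 in siOrm, against 0.14 and -0.02 in siControl. Chac1, which degrades glutathione, stood at 0.05 and -0.05 in siOrm, against 1.16 and -1.33 in siControl, the same order of arrays as Herpud1. Atf5, a transcription factor of the same stress pathway, stood at -0.01 and 0.01 in siOrm, against 0.36 and -0.96 in siControl. Fgf21, a hepatokine, stood at -0.21 and 0.21 in siOrm, against 0.68 and -0.22 in siControl. For Chac1 and Atf5 the siOrm arrays lay together between the siControl arrays, and the group differences, 0.08 (SE 0.76) and 0.30 (SE 0.41), were far smaller than the gap within siControl. Other targets had siControl replicate 2 as the higher of the pair: Asns stood at 0.21 and 0.27 in siControl, Atf3 at 0.08 and 1.29, Cth at -0.47 and -0.06, and Aldh18a1 at 0.01 and 0.34. Macrophage markers were highest in siControl replicate 2, the array with the low values of Chac1 and Atf5, and the part of other cell types in this was not tested.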
